A study of Homo sapiens with 4 samples.

Results

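The genes described here build the contacts between epithelial cells or mark their loss. The list held 43 genes chosen by name, 36 junction and epithelial genes and 7 mesenchymal genes, and a probe belonged to a gene when its accession did. Of the 43 genes, 42 had a probe and 38 were measured on every array, 33 of the 36 junction and epithelial genes and 5 of the 7 mesenchymal genes. Over the whole series 19480 genes had a probe and 13599 were measured.

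The arrays profiled HuCCT1, an established human cell line of intrahepatic cholangiocarcinoma (cancer of the bile ducts within the liver), to find the genes that respond when miR-376c is restored or its target GRB2 is silenced. GRB2 is an adaptor protein that couples the activated EGF receptor to Ras signalling. There were 4 transfections, each at 30 nM. The miR-376c cells received a synthetic precursor of miR-376c and the miControl cells a negative control precursor, while the siGRB2 cells received an siRNA against GRB2 and the siControl cells a negative control siRNA. All 4 groups were otherwise handled alike, with 5 ng/ml EGF added 24 h after transfection and left for 24 h in medium with 0.1% serum. Cells without EGF and untransfected cells were not analysed here, so no value below speaks to the effect of EGF or of transfection itself. Each group was 1 array of RNA from cultured cells of 1 line. There was therefore no replicate and no p-value or SD of a group, and with 4 arrays in all the precision of each difference is limited by their number. In such bulk RNA fewer cells of a kind and less RNA per cell cannot be told apart.

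Epithelial cells are held together by adherens junctions and desmosomes, in which cadherins span the gap between neighbours and catenins or plakins tie them to the cytoskeleton. Tight junctions, built from claudins and occludin on a scaffold of ZO proteins, seal the space between the cells, and gap junctions, built from connexins, let small molecules pass from cell to cell. In the epithelial-mesenchymal transition, transcription factors of the SNAI, ZEB and TWIST families repress junction genes such as E-cadherin, while N-cadherin and vimentin appear and cells become more motile. In bile ducts the tight junctions keep bile away from the tissue, and carcinoma cells can carry epithelial and mesenchymal features together.

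The mature miRNA is shown because it is the agent of 1 of the 2 treatments. Its sequence was taken from RefSeq (build GRCh38.p14, plus strand, chr14:101039732-101039752), and the capitals mark the seed, bases 2 to 8, the stretch through which a miRNA mainly recognises its targets.
hsa-miR-376c-3p: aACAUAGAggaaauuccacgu

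The promoters of 4 junction genes are shown because SNAI and ZEB factors bind the E-box CACCTG, and these were the junction genes with at least 2 such motifs before the start site in 1 promoter window. The RefSeq table (GRCh38.p14) gave 47 windows of 300 bases, from 250 before to 50 after a start, for 28 of the 43 genes, and windows of 1 gene can overlap. Genes without a window, E-cadherin (CDH1) among them, could not be searched for the motif. CACCTG, read on both strands and therefore also as CAGGTG, was found in 15 of the 47 windows (31.9%), belonging to 13 genes, and in 20.6% of the 35116 windows of all genes. Windows with 2 or more made up 12.8% of the members' windows and 3.49% of all windows. The share was 36.1% of the 36 windows of junction and epithelial genes and 18.2% of the 11 windows of mesenchymal genes. CLDN7, a claudin of the tight junction, held 5 in 1 window, 4 of them before the start, and only 33 windows of all genes (0.094%) held 5 or more. AACCGGTT, a motif of grainyhead factors such as GRHL2, was in no member's window and in 0.134% of all windows. The sequences run 5′ to 3′ on the strand of the gene, the capitals mark each CACCTG or CAGGTG, and a match is no evidence of binding. They lie at chr17:7262479-7262728 (CLDN7, minus strand, bases -250 to -1 from the start), chr17:41785993-41786052 (JUP, minus strand, -76 to -17), chr6:7541483-7541601 (DSP, plus strand, -188 to -70) and chr18:31497935-31498076 (DSG2, plus strand, -242 to -101).
CLDN7: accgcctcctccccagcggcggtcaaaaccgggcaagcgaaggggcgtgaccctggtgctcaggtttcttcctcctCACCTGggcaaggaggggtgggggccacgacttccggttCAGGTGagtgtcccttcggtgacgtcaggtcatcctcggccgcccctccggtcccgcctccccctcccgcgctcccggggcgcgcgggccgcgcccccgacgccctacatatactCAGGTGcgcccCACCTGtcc
JUP: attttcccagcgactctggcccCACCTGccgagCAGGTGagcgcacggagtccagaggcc
DSP: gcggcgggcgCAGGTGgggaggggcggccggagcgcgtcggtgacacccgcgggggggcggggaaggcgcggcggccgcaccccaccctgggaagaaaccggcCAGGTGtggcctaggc
DSG2: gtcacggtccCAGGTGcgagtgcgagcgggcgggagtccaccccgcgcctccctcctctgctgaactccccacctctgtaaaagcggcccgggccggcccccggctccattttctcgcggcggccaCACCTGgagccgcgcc

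A level is the log2 processed signal of a gene's probes minus the array's 75th percentile, so that 0 stands for that percentile. The 75th percentile was 1719 to 2689 signal units, and 63.9% to 70.7% of the 34127 probes were well above background on an array. GRB2 had a level of 0.62 with miControl, 0.07 with miR-376c, -0.10 with siControl and -0.65 with siGRB2. It was lowest with siGRB2, and 1.46-fold and 1.47-fold lower on the miR-376c and siGRB2 arrays than on their own controls. The control arrays differed by more than that, since GRB2 was 1.65-fold lower with siControl than with miControl. The siControl array stood apart from the other 3, being the highest or the lowest of the 4 arrays for 31 of the 38 measured members (81.6%), against 74.4% of all genes. It also had the lowest 75th percentile (1719) and the lowest share of detected probes (63.9%). An effect of the control siRNA, the quality of that sample and the spread between cultures or arrays cannot be told apart here. The siGRB2 array is therefore compared below with siControl, its own control, and with miControl.

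The epithelial label fitted the markers. The biliary epithelial markers KRT7, KRT19, KRT8, KRT18, EPCAM and SOX9 were measured on every array, with KRT7 at 7.65 to 8.09 and KRT19 at 7.98 to 8.49. Hepatocyte ALB, TTR and HNF4A and fibroblast COL1A2, COL3A1, PDGFRB and DCN were not well above background on any array. Of the 5 hepatocyte markers APOA1 was measured, of the 6 fibroblast markers COL1A1 and LUM, of the 3 leukocyte markers PTPRC and CD68, and of the 3 endothelial markers CDH5 and VWF, all below the 75th percentile on every array. CYP3A4 and PECAM1 were detected on 2 arrays and CD3E on 3.

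The cells carried both sets of genes. On all 4 arrays 21 of the 33 measured junction and epithelial genes, and 2 of the 5 mesenchymal genes (CDH2 and VIM), lay above the 75th percentile. That was 60.5% of the 38 measured members, against 34.2% of all genes. The members were chosen with earlier results of these data known, so these shares are a description alone. By the mean of their probes, another 11 members lay below it on every array and 4 (CTNNB1, CTNND1, DSG2 and OCLN) crossed it. For CTNNB1, CTNND1 and OCLN no single probe crossed it, since 1 probe lay above it on every array and the other below. The probes of CLDN12, counted among the 11, were split in the same way. E-cadherin (CDH1) and N-cadherin (CDH2) were thus both measured in every transfection. Of the master regulators, SNAI1, SNAI2 and ZEB1 were measured below the 75th percentile, while TWIST1 was not well above background on any array. ZEB2, the relative of ZEB1, was detected with miControl alone, by 1 of its 2 probes. Its signal there was at least 1.23-fold that of miR-376c, 1.14-fold that of siControl and 1.26-fold that of siGRB2. Desmocollin DSC3 was not well above background on any array, plakophilin PKP1 only by 1 of 2 probes with miControl, and TJP3 had no matched probe.

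**Figure D1:**
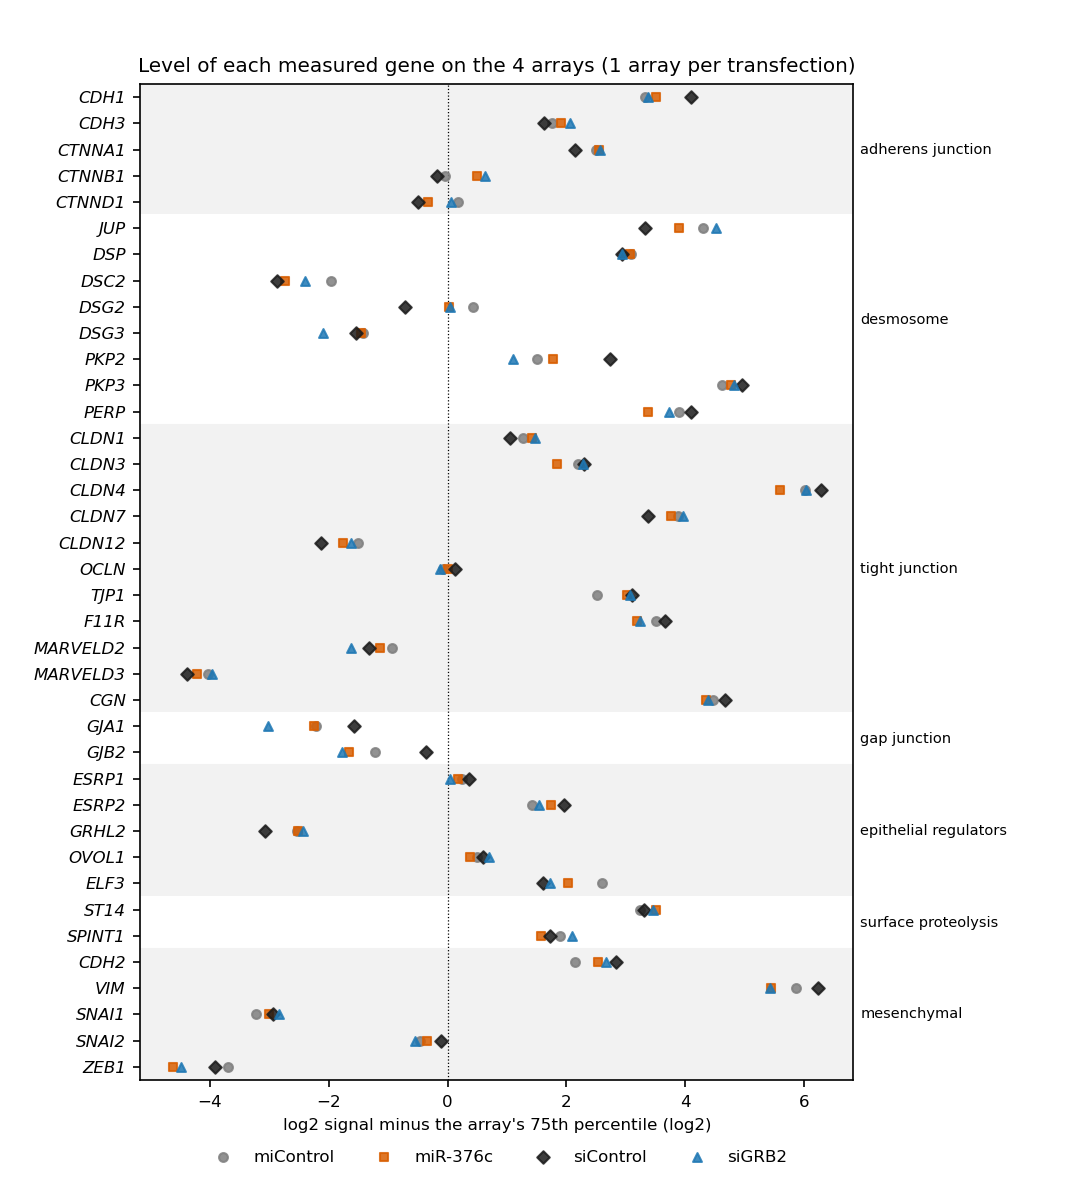
Level of each of the 38 measured genes on the 4 arrays, in log2 units from the array's 75th percentile (dotted line at 0), ordered by role, with 1 symbol per array and no error bars since each group is 1 array. Positions are to be compared within a gene and not between genes, and siControl lies at an end of the row for 31 of the 38 genes.

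Against its own control, miR-376c moved no member by 2-fold or more. None of the 38 was 2-fold lower, where 0.706% of all genes were, and none 2-fold higher, where 0.434% were. At 1.5-fold, 2 members (5.26%) were lower, DSC2 and ZEB1, against 5.13% of all genes, and none was higher, against 2.68%. The share lower was thus near that of all genes.

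With siGRB2 against siControl, 3 members (PKP2, GJA1 and GJB2) were at least 2-fold lower, where 2.44% of all genes were. Only JUP was at least 2-fold higher, where 4.3% of all genes were. The split of 3 lower and 1 higher became 5 and 0 with the array median in place of the 75th percentile (a median shift), and 11 and 10 with normexp background correction. The shares of all genes under these settings are not given. At 1.5-fold, 5 members (13.2%) were lower, with CDH1 and VIM added, against 10.9% of all genes. At that limit 5 (13.2%) were higher, CTNNB1, JUP, DSG2, CLDN7 and GRHL2, against 17.6% of all genes.

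With siGRB2 against miControl no member was 2-fold lower or 2-fold higher, where 0.427% and 0.507% of all genes were. At 1.5-fold, 5 members (13.2%), DSG3, MARVELD2, GJA1, ELF3 and ZEB1, were lower, against 2.39% of all genes. CTNNB1 (2.63%) was higher, against 2.71%. Of the genes at least 1.5-fold from siControl, GJA1 and CTNNB1 therefore passed that limit against both control arrays in 1 direction. Swapping the control for miR-376c left 1 member 2-fold lower than siControl, GJB2, where 2.49% of all genes were, and none higher, where 2.07% were. Between the control arrays themselves DSG2 was 2-fold lower with siControl, where 3.64% of all genes were, and PKP2 2-fold higher, where 2.06% were.

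**Figure D2:**
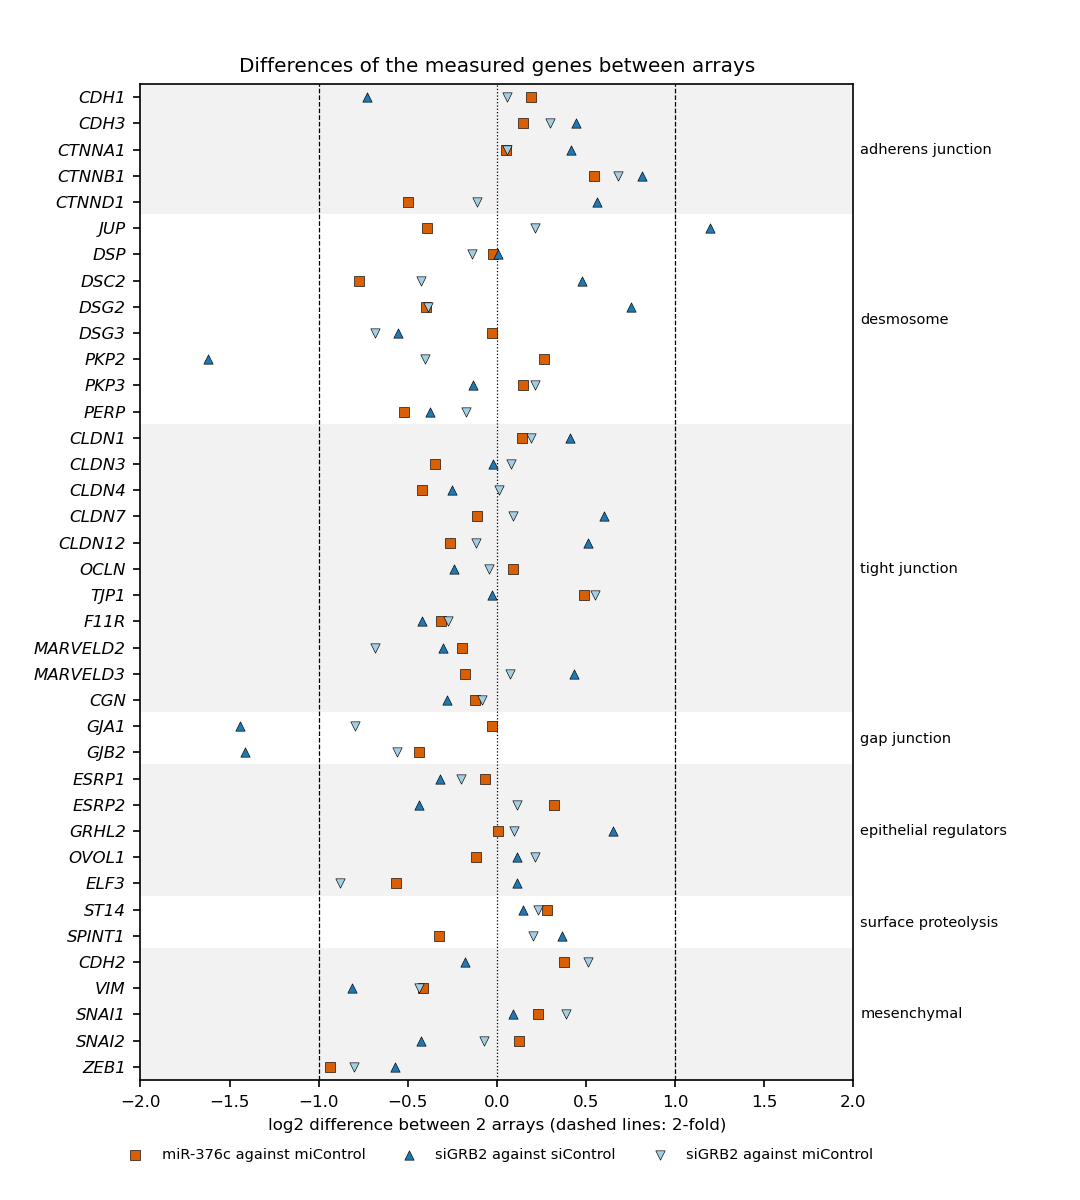
Log2 differences of the 38 measured genes between arrays, with dashed lines at 2-fold and 1 symbol per comparison. Past the lines lie PKP2 (-1.62), GJA1 (-1.44), GJB2 (-1.41) and JUP (1.19), all in siGRB2 against siControl, and no gene in miR-376c or siGRB2 against miControl.

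The adherens junction genes did not move as a block. E-cadherin (CDH1), the cadherin that joins epithelial cells, had a level of 3.32 with miControl, 3.51 with miR-376c, 4.10 with siControl and 3.38 with siGRB2. The siControl array was high and the other 3 lay within 0.19 of each other. CDH1 was therefore 1.65-fold lower with siGRB2 than with siControl (log2 difference -0.73) and 1.04-fold higher than with miControl (0.06). Its probe was printed in 10 spots, and the scanner error of its differences was 0.0645 to 0.0663, against a median of 0.204 over the members.

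β-catenin (CTNNB1), which links cadherins to the actin cytoskeleton and also carries Wnt signals, had a level of -0.04 with miControl, 0.50 with miR-376c, -0.18 with siControl and 0.64 with siGRB2. Both treated arrays were above both controls, and the gap of 0.54 was the widest of any member in that direction. It was 1.46-fold higher with miR-376c, and with siGRB2 1.76-fold higher than siControl and 1.60-fold higher than miControl. Both of its probes gave higher values on the treated arrays. Against siControl the siGRB2 difference (0.82) was under 1.5-fold with the brighter probe alone (0.30), the median shift (0.53) and normexp (0.46). P-cadherin (CDH3) was likewise higher on both treated arrays, at 1.77 with miControl, 1.91 with miR-376c, 1.62 with siControl and 2.06 with siGRB2. α-catenin (CTNNA1) stood at 2.50, 2.55, 2.15 and 2.56 on the same arrays, so that its siGRB2 difference was 0.41 against siControl and 0.06 against miControl. The 0.41 was a mean of 0.05 with its brighter probe and 0.78 with its dimmer one. For miR-376c against miControl these probes gave 0.23 and -0.13. p120 catenin (CTNND1), which holds cadherins at the membrane, had levels of 0.17, -0.32, -0.50 and 0.06 in the same order of arrays, lowest with siControl.

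Of the 8 measured desmosome genes all but DSG3 were highest or lowest with siControl. Plakoglobin (JUP), the catenin shared by desmosomes and adherens junctions, had a level of 4.29 with miControl, 3.90 with miR-376c, 3.32 with siControl and 4.51 with siGRB2. It was 2.29-fold higher with siGRB2 than with siControl and 1.16-fold higher than with miControl, and the log2 difference of 1.19 from siControl was 0.91 with the median shift and 0.18 with normexp. Plakophilin 2 (PKP2), which anchors the desmosomal plaque, showed the converse, with levels of 1.51, 1.77, 2.73 and 1.11 on these arrays. It was 3.07-fold lower with siGRB2 than with siControl and 1.32-fold lower than with miControl, and its range of 1.62 over the 4 arrays was the widest of the 38 members.

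The desmosomal cadherins did not share 1 pattern. Desmoglein 2 (DSG2) had a level of 0.43 with miControl, 0.03 with miR-376c, -0.71 with siControl and 0.04 with siGRB2. It was 1.68-fold higher with siGRB2 than with siControl but 1.31-fold lower than with miControl, and the first was under 1.5-fold with the median shift (0.47) and normexp (0.55). Desmocollin 2 (DSC2) had levels of -1.97, -2.74, -2.87 and -2.39 in that order, so that it was 1.71-fold lower with miR-376c than with miControl and 1.09-fold higher than with siControl. Here miControl was the high array and the other 3 lay below it. Desmoglein 3 (DSG3) stood at -1.42, -1.45, -1.55 and -2.10, lowest with siGRB2, which was 1.60-fold lower than miControl and 1.47-fold lower than siControl. The mean level of desmoplakin (DSP), which ties desmosomes to intermediate filaments, was 3.08, 3.06, 2.94 and 2.94. That mean hides probes of opposite direction, at 3.70, 3.59, 3.82 and 3.51 for 1 and 2.47, 2.54, 2.05 and 2.38 for the other. Plakophilin 3 (PKP3) spanned 4.61 to 4.96, while the desmosomal membrane protein PERP had levels of 3.90, 3.38, 4.11 and 3.73 and was lower on both treated arrays.

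Among the 11 measured tight junction genes 1 passed 1.5-fold against an own control. Claudin 7 (CLDN7) had a level of 3.88 with miControl, 3.77 with miR-376c, 3.37 with siControl and 3.97 with siGRB2. It was low with siControl alone, so that siGRB2 was 1.52-fold above siControl and 1.07-fold above miControl. The difference from siControl (log2 difference 0.60) was under 1.5-fold with the deposited log2 values (0.52) and the median shift (0.32), and negative with normexp (-0.37). The claudins CLDN3 (1.84 to 2.29) and CLDN4 (5.60 to 6.28) were both lowest with miR-376c, and claudin 1 (CLDN1) was higher on both treated arrays, at 1.42 and 1.47 against 1.28 with miControl and 1.06 with siControl. ZO-1 (TJP1), the scaffold under the claudins, had levels of 2.52 with miControl, 3.01 with miR-376c, 3.10 with siControl and 3.07 with siGRB2, with miControl low and the other 3 close together. Tricellulin (MARVELD2), which seals the corners where 3 cells meet, had levels of -0.94, -1.13, -1.31 and -1.62, and was 1.61-fold lower with siGRB2 than with miControl and 1.23-fold lower than with siControl. Occludin (OCLN) spanned -0.12 to 0.12, cingulin (CGN) spanned 4.35 to 4.66 and claudin 12 (CLDN12), lowest with siControl at -2.13, had a range of 0.63. MARVELD3, a relative of occludin, had levels of -4.04, -4.21, -4.40 and -3.96, lowest with siControl. The adhesion molecule JAM-A (F11R) was lower on both treated arrays, at 3.19 with miR-376c and 3.24 with siGRB2 against 3.51 with miControl and 3.66 with siControl.

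Both connexins were lowest with siGRB2. Connexin 43 (GJA1) had a level of -2.22 with miControl, -2.25 with miR-376c, -1.57 with siControl and -3.02 with siGRB2. It was 2.72-fold lower with siGRB2 than with siControl and 1.73-fold lower than with miControl, whereas miR-376c differed from miControl by 1.02-fold. Connexin 26 (GJB2) had a level of -1.22, -1.66, -0.37 and -1.78 in that order and was lower on both treated arrays, with a gap of 0.43 to the nearer control. It was 2.66-fold lower with siGRB2 than with siControl, 1.47-fold lower than with miControl, and 1.35-fold lower with miR-376c than with miControl. The GJB2 probe was printed in 10 spots, and the scanner error of its differences was 0.0682. With normexp background correction the siGRB2 difference from siControl was 1.11 for GJA1 and -0.04 for GJB2, so neither stayed 2-fold lower.

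The epithelial regulators differed from gene to gene. ELF3, an ETS factor of epithelial cells, had a level of 2.60 with miControl, 2.03 with miR-376c, 1.61 with siControl and 1.72 with siGRB2. It was high with miControl alone, so that siGRB2 was 1.84-fold below miControl but 1.08-fold above siControl. The grainyhead factor GRHL2 had levels of -2.53, -2.52, -3.08 and -2.43, low with siControl, and siGRB2 was 1.57-fold above siControl and 1.07-fold above miControl. The difference from siControl was under 1.5-fold with the brighter of its 2 probes alone (0.29) and with quantile normalization (0.42), the median shift (0.37) or the deposited log2 values (0.57). For miR-376c against miControl the brighter GRHL2 probe gave 0.36 and the dimmer one -0.35. The splicing regulators ESRP1 (0.04 to 0.36) and ESRP2 (1.42 to 1.97) were both highest with siControl, and the zinc finger factor OVOL1 spanned 0.37 to 0.70. Matriptase (ST14), a membrane serine protease, was at 3.52 and 3.46 on the treated arrays against 3.23 and 3.31 on the controls, and its inhibitor SPINT1 spanned 1.56 to 2.09.

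Of the mesenchymal genes VIM and ZEB1 were lower on both treated arrays and CDH2 was not. Vimentin (VIM), the intermediate filament protein of mesenchymal cells, had a level of 5.86 with miControl, 5.45 with miR-376c, 6.24 with siControl and 5.42 with siGRB2. It was 1.33-fold lower with miR-376c, and with siGRB2 1.76-fold lower than siControl and 1.36-fold lower than miControl. ZEB1, a repressor of E-cadherin, had a level of -3.69 with miControl, -4.63 with miR-376c, -3.92 with siControl and -4.49 with siGRB2. Its gap of 0.57 between the lower control and the higher treated array was the widest of any member in that direction. ZEB1 was 1.92-fold lower with miR-376c (log2 difference -0.94, scanner error 0.17), and with siGRB2 1.48-fold lower than siControl and 1.74-fold lower than miControl. The miR-376c difference was -0.59 with the brighter probe alone and under 1.5-fold with normexp (-0.45). With normexp the siGRB2 difference from siControl was 2.83. The signal of ZEB1 was 4.05% to 7.75% of the 75th percentile, a level above the lowest detected one of each array (-6.99 to -6.32). Its dimmer probe was at -5.57 with miR-376c, where the lowest detected level was -6.40.

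N-cadherin (CDH2), the cadherin that mesenchymal cells carry in place of E-cadherin, had a level of 2.15 with miControl, 2.53 with miR-376c, 2.84 with siControl and 2.66 with siGRB2. It was 1.30-fold higher with miR-376c than with miControl, and with siGRB2 1.13-fold lower than siControl and 1.43-fold higher than miControl, so its direction turned with the control. The Snail factor SNAI1 had levels of -3.23, -3.00, -2.93 and -2.85 on these arrays, and Slug (SNAI2) -0.47, -0.35, -0.12 and -0.54. At these levels neither differed by 1.5-fold between any treated array and a control. For siGRB2 against siControl, however, the log2 difference of SNAI1 was 2.10 with normexp and that of SNAI2 was -0.71 with the median shift. Both of these are past 1.5-fold.

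The median difference of the list was set beside that of all genes. The median log2 difference of the junction and epithelial genes was -0.11 for miR-376c against miControl (21 lower and 12 higher), 0.01 for siGRB2 against siControl (16 lower and 17 higher) and 0.01 for siGRB2 against miControl (16 lower and 17 higher). The median of all genes was -0.02, 0.11 and 0.03 in these comparisons, with 53.1%, 41.4% and 44.2% of them lower. For the 5 mesenchymal genes the median was 0.13, -0.43 and -0.07, with 2, 4 and 3 of them lower. The scatter of the members (SD 0.34, 0.63 and 0.39 across genes, which are not replicates) stood beside 0.34, 0.55 and 0.30 for all genes. Outside the 5th to 95th percentile of all genes lay 4 of the 38 members for miR-376c against miControl, 4 for siGRB2 against siControl and 10 for siGRB2 against miControl. By definition that band leaves out the lowest 5% and the highest 5% of all genes.

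The comparisons of miR-376c with miControl and of siGRB2 with siControl share no array. In these 19 of the 38 members differed in 1 direction, 12 lower and 7 higher in both, against 45.0% of all genes. A stricter reading asks for both treated arrays on 1 side of both controls. It was met from below by 8 members (21.1%), PERP, F11R, CGN, GJA1, GJB2, ESRP1, VIM and ZEB1, against 13.6% of all genes. It was met from above by 6 (15.8%), CDH3, CTNNA1, CTNNB1, CLDN1, GRHL2 and ST14, against 20.1%. The widest gaps among these members were 0.57 for ZEB1, 0.54 for CTNNB1, 0.43 for GJB2, 0.41 for VIM and 0.27 for F11R. The F11R gap held for the mean of its probes and not for each probe. The share of all genes with gaps as wide is not given, so these gaps are a description alone. The median scanner error of a member's difference was 0.204, an error of spots that does not measure the spread between arrays.

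**Figure D3:**
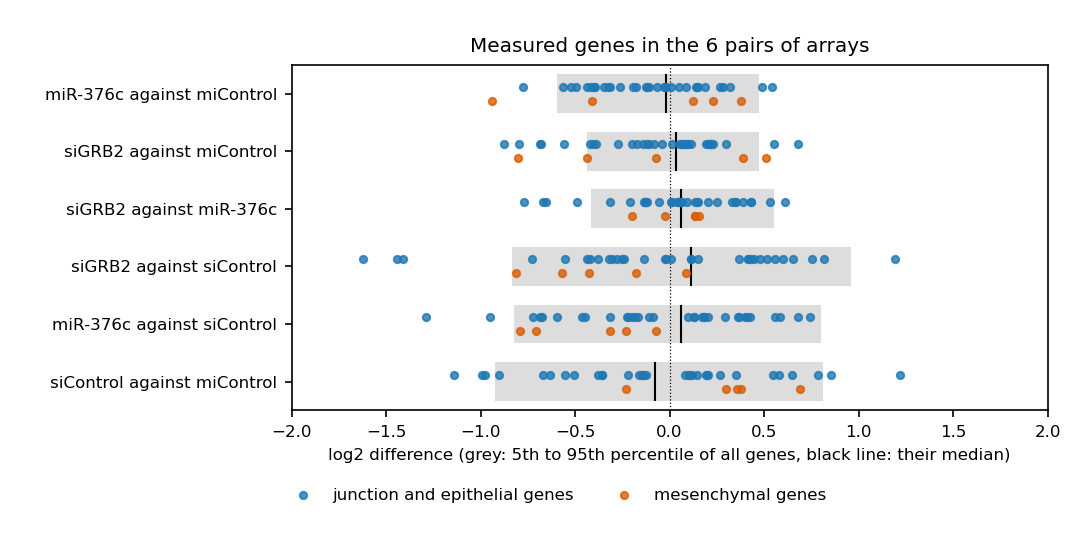
Log2 differences of the 33 junction and epithelial genes and the 5 mesenchymal genes in the 6 pairs of arrays, 1 point per gene, over a grey band from the 5th to the 95th percentile of all genes. The 3 pairs with siControl have the wider bands, and the members are spread more widely there too.

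The siControl array was the highest or lowest of the 4 for 31 of the 38 members, miControl for 16, miR-376c for 9 and siGRB2 for 20. Over the 4 arrays the range of a member had a median of 0.62 and reached 1.62 (PKP2). Without siControl the median was 0.39 and the highest 0.94 (ZEB1), so that all 38 members lay within 2-fold and 29 within 1.5-fold over the other 3 arrays. Of all 13599 genes, 13311 lay within 2-fold and 11826 within 1.5-fold over these 3 arrays. For all genes the median range was 0.53 over the 4 arrays and 0.29 without siControl. A range over 3 arrays cannot exceed that over 4, and ranges without another array are not given.

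Probes of 1 gene did not always agree. Of the 11 members with several measured probes, 3 had probes of opposite sign for miR-376c against miControl (CTNNA1, DSP and GRHL2) and 3 for siGRB2 against siControl (CDH2, DSP and F11R). Among all 3207 genes with several probes the shares were 35.6% and 41.9%. For CDH2, 1 probe had levels of 1.58 with miControl, 1.91 with miR-376c, 1.77 with siControl and 2.01 with siGRB2, and the other 2.72, 3.14, 3.92 and 3.31. The direction of CDH2 with siGRB2 against siControl thus depended on the probe (0.25 and -0.60). For F11R 1 probe gave 5.15, 5.01, 5.81 and 4.94 on these arrays, high with siControl, and its difference for siGRB2 against siControl was -0.88. The other F11R probe was high with miControl at 1.87, and its difference was 0.04.

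The ZEB1 and CTNNB1 probes agreed in direction with the treatments. For ZEB1, 1 probe had levels of -3.09, -3.68, -3.12 and -3.59 in the order miControl, miR-376c, siControl and siGRB2, and the other -4.29, -5.57, -4.72 and -5.39. Both were lower on both treated arrays. For CTNNB1 the 10-spot probe had levels of 1.19, 1.84, 1.53 and 1.84 and the other -1.28, -0.84, -1.89 and -0.56. Their differences for siGRB2 against siControl were 0.30 and 1.33, the widest gap of any member in that comparison, at 1.03.

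**Figure D4:**
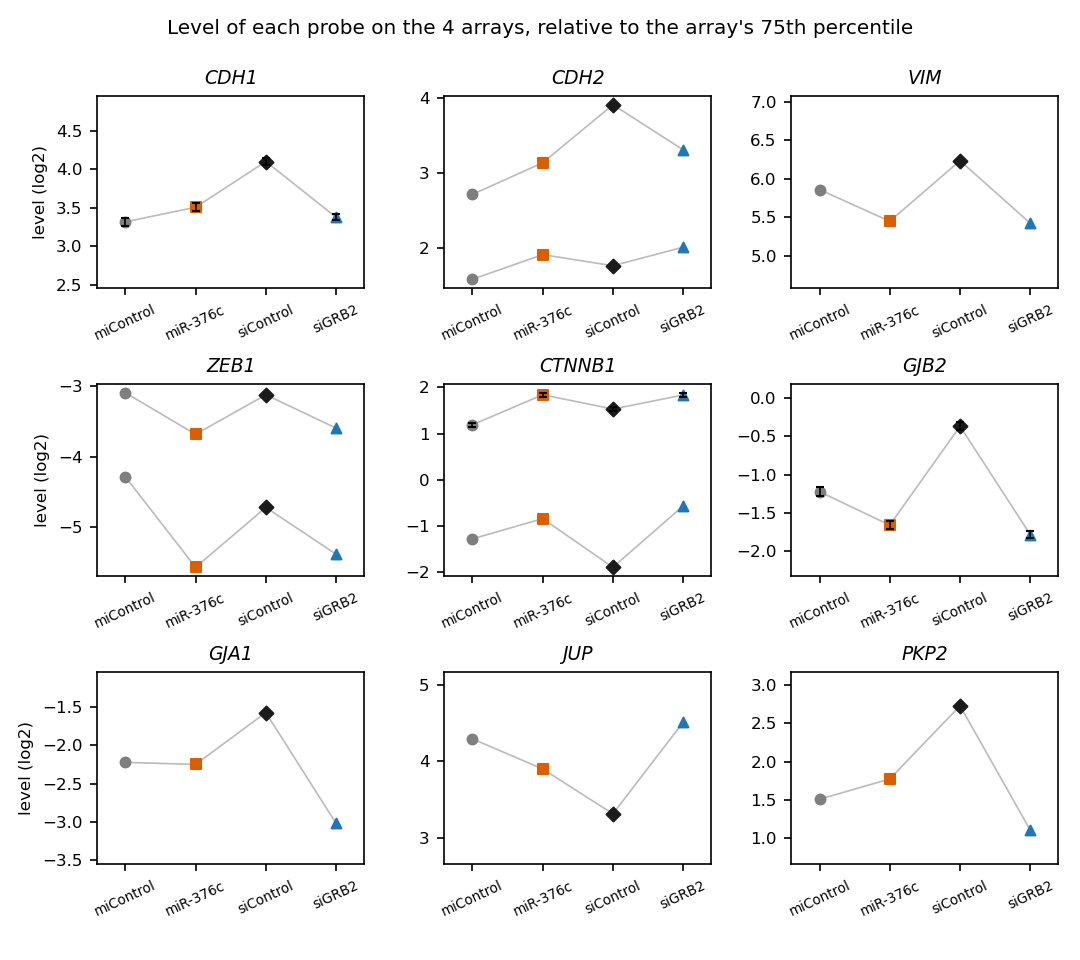
Level of each probe (log2, relative to the array's 75th percentile) on the 4 arrays, in 1 panel per gene, with lines that only join the values of 1 probe. Both ZEB1 probes are lower on the miR-376c and siGRB2 arrays than on the controls, while 1 CDH2 probe is highest with siGRB2 (2.01) and the other with siControl (3.92).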

How the data were processed

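RNA (200 ng) of the 4 transfections was labelled with 1 dye and hybridised to Agilent 44 K arrays on 1 slide, read in 1 scan, so no batch could be blocked. The authors deposited spot intensity values from Agilent Feature Extraction (10.7), already background-subtracted, and a table of log2 values shifted to the 75th percentile, which, apart from a constant of 0.38 to 0.46 that differed by array, equalled the log2 scanner values within 0.01 for 99.95% to 99.96% of probes. From the deposited intensity, log2 values minus each array's 75th percentile over non-control spots were computed (Python 3.11.15, numpy 2.4.6, pandas 2.3.3). Outlier spots (289 to 329 per array) were left out and no spot was saturated. Spots of a probe, then probes of a gene, were averaged. A probe counted as detected with over 0.5 of its spots well above background, and 21239 probes were so on all 4 arrays. A gene was measured when 1 of its probes was. Bounds used the lowest detected signal, 21.2 to 24.4.

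Matched to RefSeq (GRCh38.p14), accessions named 25419 of 34127 probes (74.5%), and its coordinates are given for the printed sequences alone. The scanner error is the software's spot error and no replicate error.

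Differences of 2-fold or more were counted and set beside the share of all 13599 genes, with no test. Values per array are given for members at least 1.5-fold from their own control, for CDH1 and the mesenchymal genes, and for members whose probes disagreed. The members and lists were chosen with earlier results of these data known. The counting step was tested on simulated data. Alternatives were limma normexp (R 4.3.3, limma 3.58.1, offset 50), quantile normalization, the array median or the percentile of detected probes as the shift, the deposited log2 values, outlier spots kept, other detection rules, the brightest probe, other controls and other limits. Some genes of the other lists are not reported here.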

Additional observations from a re-analysis of the deposited data

How the results depend on the processing

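The miR-376c count of 0 members at least 2-fold from miControl became 2 at a 1.5-fold limit and 1 against siControl. The siGRB2 count of 4 against siControl became 10 at 1.5-fold, 1 at 3-fold, 0 against miControl and 2 against the mean of both controls. With normexp it became 21 (11 lower and 10 higher), and normexp also carried the median of all genes from 0.11 to 0.76. The shares of all genes at 3-fold, against the mean of both controls and with normexp are not given. These counts therefore cannot be read against all genes. The junction median for siGRB2 was -0.28 with a median shift (all genes -0.17) and -0.39 with normexp, and for miR-376c 0.10 against siControl. The mesenchymal median for siGRB2 was -0.71 with the median shift, -0.025 with normexp and -0.072 against miControl. For miR-376c it was -0.089 with genes detected on at least 1 of the 2 arrays and -0.31 against siControl. Under normexp GJA1 was 1.11, ZEB1 2.83 and CLDN7 -0.37 for siGRB2 against siControl, and the cause was not tested. Normexp without spots of a flagged background, chosen after seeing the data, gave a count of 4. Of 12 alternatives, all kept the direction of VIM, GJB2 and CTNNB1 in both treatments and of ZEB1 with miR-376c (-0.98 to -0.45), and 11 that of ZEB1 with siGRB2, but with normexp GJB2 was -0.04 for siGRB2 against siControl, within its scanner error of 0.0682. No paired analysis was possible because each group is 1 array. Signal over background limits ZEB1, MARVELD3, SNAI1 and the undetected members.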

Other observations

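The other genes of the junctions were read from a list of 28 partners and polarity genes, of which 25 were measured. Their median log2 difference was -0.10 for miR-376c against miControl, -0.09 for siGRB2 against siControl and -0.07 for siGRB2 against miControl. Claudin 2 (CLDN2), a claudin that forms cation pores, was the only one at least 2-fold apart from miControl on both treated arrays. Its level was -2.04 with miControl, 0.37 with miR-376c, -0.55 with siControl and -0.07 with siGRB2. The miControl array was low and the other 3 were above it, so that CLDN2 was 5.34-fold higher with miR-376c and 3.92-fold higher with siGRB2 than with miControl, and siGRB2 was 1.40-fold above siControl. The siControl array was itself 2.81-fold above miControl, and CLDN2 had 1 probe. For siGRB2 against siControl, CLDN15 (-1.63) and the polarity kinase PRKCI (-1.07) were at least 2-fold lower and the actin crosslinker ACTN4 (1.13) at least 2-fold higher. Against miControl the same genes differed by 0.05, -0.15 and 0.28, while siControl itself differed from miControl by 1.68, 0.92 and -0.84. For miR-376c against siControl, the adhesion molecule NECTIN4 (-1.22) and CLDN15 (-1.92) were at least 2-fold lower, and against miControl they differed by -0.61 and -0.24. The nectin NECTIN3 and paracingulin (CGNL1) were 1.86-fold and 1.97-fold lower with miR-376c than with miControl. NECTIN3 was at -1.92 with miControl and at -2.81, -2.52 and -2.79 with miR-376c, siControl and siGRB2, high with miControl alone.

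Of 14 further mesenchymal genes 9 were measured, with medians of -0.29, 0.24 and 0.11 in the comparisons of miR-376c with miControl, siGRB2 with siControl and siGRB2 with miControl.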
